A study of Mus musculus with 16 samples.

Results

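The regions at or near gene ends that were open in mouse embryonic fibroblasts (MEF) and not in induced pluripotent stem cells (iPSC) were 1901 of the 165616 regions of a series on chemical reprogramming. Accessible DNA was read out by ATAC-seq, which marks open sites by the insertion of adapters with Tn5 transposase. The regions were chosen from the measured peaks themselves: the authors' 8 peak lists, 1 per stage, were merged wherever peaks overlapped by 1 bp or more. A region belonged here if it overlapped a peak of the day 0 list, no peak of the iPSC list, and had the end of a protein-coding gene, 5′ or 3′, within 1 kb (RefSeq, GRCm38.p6, the assembly behind mm10). They are called MEF-only gene-end regions below. They made up 10.5% of the 18131 regions near gene ends, while MEF-only regions made up 19.3% of all regions. The shares follow from the rule and were not tested.

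The 16 samples fall into 8 stages with 2 samples each, and all carry the strain label 129XOG2 E13.5 embryo. Day 0 is MEF of passages 1 to 3 in serum medium, days 2, 4, 6, 8, 10 and 12 are cells under a reprogramming medium whose compounds the labels do not list, and the iPSC were kept on feeder cells in a medium with LIF, CHIR99021 (a GSK3 inhibitor) and PD0325901 (a MEK inhibitor). The authors gave 1 list per stage, so there is no replicate spread, no test was run and every difference below lies between single lists. Intervals are exact Clopper-Pearson 95% intervals and cover counting error only. "Closed" means here that the list of iPSC held no peak, and chromatin of the feeder cells could add peaks to that list, which was not tested.

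The lists differed in depth. The background pileup, the lowest local background the peak caller used in a list, was 1.96 for MEF and 1.90 for iPSC, but 3.08, 1.23, 2.12, 0.682, 0.968 and 0.248 for days 2, 4, 6, 8, 10 and 12. Shared gene-end regions, which had a peak both at day 0 and in iPSC (9840 regions), are therefore given beside each share as a measure of what a list could detect. It is a limited measure, since their day 0 peaks were stronger than those of the MEF-only regions (median summit pileup 38 against 21). The lists held 31915 to 83022 peaks. Of 8 fibroblast marker genes, 7 had a day 0 peak at an end, against 4 of 8 endothelial, 4 of 8 macrophage, 4 of 8 neural and 2 of 8 muscle markers, and 12281 of all 21883 genes. Of 18 genes of spermatids, a list written with the high peaks at Prm1, Prm2 and Smcp already known, 17 had such a peak.

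By way of background, the start sites of genes used in nearly all cells usually lie in CpG islands and are open in most cell types, while the start sites of tissue genes more often lack a CpG island and open with the cell's state. Fibroblast chromatin is known for sites bound by AP-1 and TEAD factors, which respond to serum, growth factors and stretch. In reprogramming, genes of matrix, contraction and mesenchymal identity are switched off while the pluripotency network is switched on.

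To set sequence beside timing, the promoter of 1 region is shown for each last day with a peak. For each day it is the region with the highest day 0 score that overlapped a start site and was found in the RefSeq table (GRCm38.p6), given as the 250 bases before the start site, 5′ to 3′ along the gene. Capitals mark matches to the motifs searched on both strands, namely AP-1 by the letters TGACTCA, the CRE by TGACGTCA, the NF-Y box by CCAAT, the GC box by GGGCGG, the TATA box by TATAAA, the TEAD motif by GGAATG, the RUNX motif by TGTGGT, E-boxes by the letters CAGCTG or by the letters CATATG, the MYC E-box by CACGTG and the CArG box. Neighbouring or overlapping matches run together.
Prm1 (chr16:10796824-10797073, minus strand, day 0 alone): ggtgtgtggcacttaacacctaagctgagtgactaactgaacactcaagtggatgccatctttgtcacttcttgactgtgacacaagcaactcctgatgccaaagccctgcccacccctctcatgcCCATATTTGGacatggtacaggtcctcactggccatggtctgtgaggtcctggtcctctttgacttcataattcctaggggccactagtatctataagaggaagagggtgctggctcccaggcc
Cavin4 (chr4:48663264-48663513, plus strand, last peak at day 2): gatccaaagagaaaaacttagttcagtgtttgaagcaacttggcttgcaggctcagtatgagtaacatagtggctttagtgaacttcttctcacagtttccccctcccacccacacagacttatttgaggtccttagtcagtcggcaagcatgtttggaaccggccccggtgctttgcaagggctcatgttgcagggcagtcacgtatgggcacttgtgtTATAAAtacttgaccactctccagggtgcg
Axl (chr7:25788734-25788983, minus strand, last peak at day 4): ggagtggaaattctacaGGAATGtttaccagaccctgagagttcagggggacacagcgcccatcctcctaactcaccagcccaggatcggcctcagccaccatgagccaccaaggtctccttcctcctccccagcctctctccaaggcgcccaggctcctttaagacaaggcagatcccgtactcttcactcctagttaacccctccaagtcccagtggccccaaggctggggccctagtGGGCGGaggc
Krtap1-5 (chr11:99581017-99581266, minus strand, last peak at day 6): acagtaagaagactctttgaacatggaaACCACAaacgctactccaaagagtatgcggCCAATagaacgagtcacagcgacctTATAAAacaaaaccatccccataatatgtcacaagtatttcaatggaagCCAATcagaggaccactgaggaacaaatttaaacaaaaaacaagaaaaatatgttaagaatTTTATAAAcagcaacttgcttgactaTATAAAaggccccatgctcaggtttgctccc
Cgref1 (chr5:30945481-30945730, minus strand, last peak at day 8): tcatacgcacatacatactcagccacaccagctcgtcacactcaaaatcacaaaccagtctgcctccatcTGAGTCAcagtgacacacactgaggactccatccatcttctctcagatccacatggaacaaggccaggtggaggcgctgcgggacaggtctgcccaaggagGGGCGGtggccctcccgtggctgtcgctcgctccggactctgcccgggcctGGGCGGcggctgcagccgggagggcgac
Gm14137 (chr2:119174259-119174508, plus strand, last peak at day 10): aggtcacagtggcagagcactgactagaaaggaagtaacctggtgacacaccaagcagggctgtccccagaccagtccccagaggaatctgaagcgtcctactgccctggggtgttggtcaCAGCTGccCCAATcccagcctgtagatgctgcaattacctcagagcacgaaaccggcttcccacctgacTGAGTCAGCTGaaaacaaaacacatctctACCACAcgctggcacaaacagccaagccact
Ubald2 (chr11:116433844-116434093, plus strand, last peak at day 12): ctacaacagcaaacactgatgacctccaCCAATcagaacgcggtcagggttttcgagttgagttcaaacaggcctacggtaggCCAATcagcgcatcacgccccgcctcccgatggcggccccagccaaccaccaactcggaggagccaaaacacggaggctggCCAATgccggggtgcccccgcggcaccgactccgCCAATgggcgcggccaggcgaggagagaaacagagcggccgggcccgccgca
The windows of Prm1, Cavin4, Axl, Krtap1-5 and Gm14137 were poor in CpG, with observed over expected CpG ratios of 0.0487, 0.395, 0.220, 0.386 and 0.220 over the 300 bases of the promoter window. Those of Cgref1 and Ubald2 were 0.625 and 0.919. The window of Krtap1-5, a hair keratin-associated protein gene, held TATA boxes and NF-Y boxes, that of Ubald2 4 NF-Y boxes and no AP-1 motif, and those of Cgref1 and Gm14137 an AP-1 motif each. The Prm1 region itself, chr16:10796326-10796909, lay over the body of the gene and took in only the nearest part of the window shown.

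MEF-only gene-end regions were most often covered at day 2 and day 6 and least often at day 12. Of the 1901 regions, 72.5% (70.4 to 74.5) had a peak in the day 2 list, 37.7% (35.5 to 39.9) in that of day 4 and 57.0% (54.7 to 59.2) in that of day 6. The later lists, days 8, 10 and 12, gave 32.4% (30.3 to 34.5), 32.5% (30.4 to 34.7) and 12.8% (11.4 to 14.4). Over all 11741 gene-end regions of day 0 the shares were 94.7%, 82.6%, 87.7%, 83.9%, 84.6% and 67.5% in the same lists, and over the shared gene-end regions they were 98.95%, 91.3%, 93.6%, 93.9%, 94.7% and 78.1%. Between days 6 and 8 the MEF-only share thus went down although the shared share did not. Among regions with a day 0 summit pileup of 8 to under 15, the MEF-only shares at days 6 and 8 were 27.4% and 17.5%. The shared ones there were 58.75% and 67.9%. At a pileup of 31 to 207 they were 81.1% and 42.9% for MEF-only and 99.1% and 98.3% for shared regions. The lists of days 4 and 8 were both shallower than that of day 6, with background pileups of 1.23, 0.682 and 2.12. With lists scaled to the day 8 background, days 4 and 6 had MEF-only shares of 34.2% and 40.7%. The shared regions then had 89.5% and 85.4%. The part of depth in the low day 4 share was not tested.

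**Figure D1:**
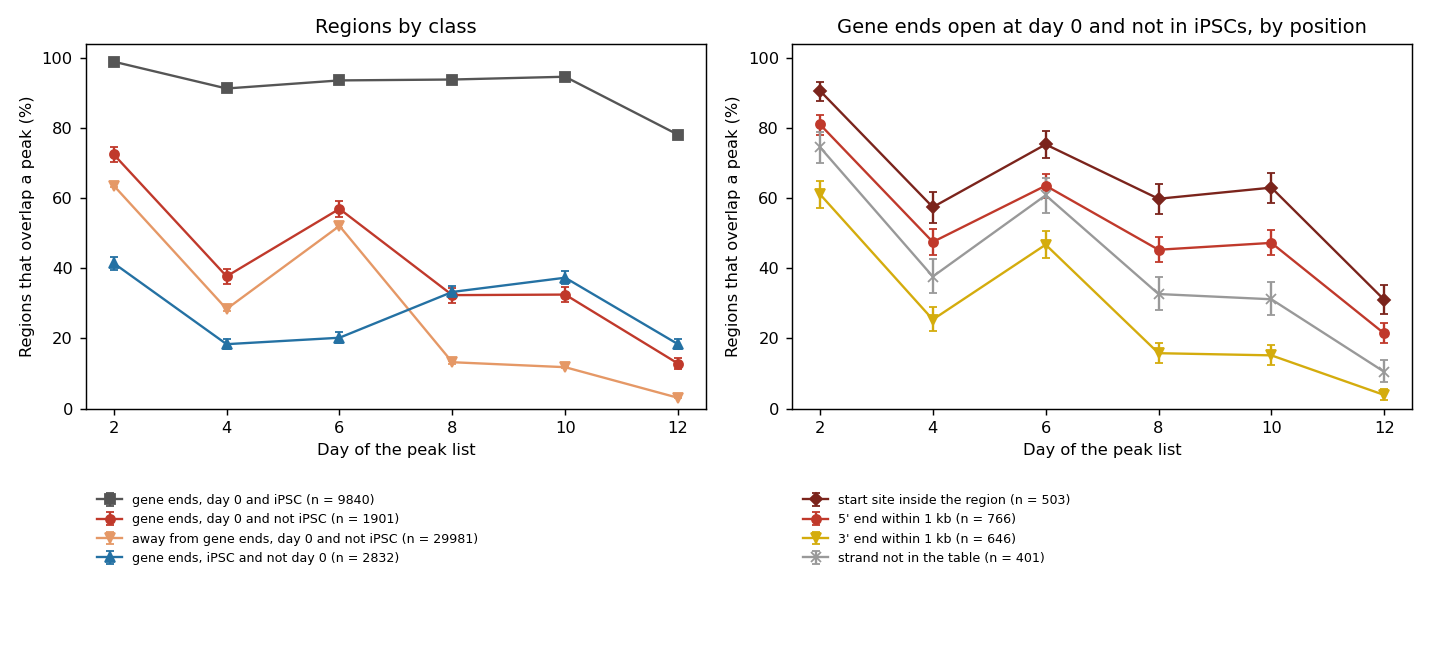
Share of regions that overlap a peak (%) in the list of each day, with exact 95% intervals for counting error; left, 4 classes of regions, right, the MEF-only gene-end regions by position, where the group with a start site inside overlaps the others. The MEF-only gene-end regions stood at 57.0% and 32.4% for days 6 and 8, shared gene-end regions at 93.6% and 93.9%, and the 3′ ends lie below the 5′ ends on every day.

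The lower share at day 8 than at day 6 was also found with other cuts of the lists. With each deeper list scaled down to the background pileup of day 8, and that of day 12, which lies below it, left as it was, the MEF-only shares at days 2, 4, 6, 8, 10 and 12 were 55.8%, 34.2%, 40.7%, 32.4%, 31.9% and 12.8%, and those of shared regions 95.5%, 89.5%, 85.4%, 93.9%, 94.5% and 78.1%, so detection still differed between the lists. With all lists cut to the length of the shortest, which redraws the regions (1490), the MEF-only shares were 53.6%, 53.4%, 58.4%, 51.1%, 49.7% and 28.3%, and the day 6 share, not that of day 2, was highest. Day 8 lay below day 6 under all 11 alternatives that gave both values, by 7.32 to 37.5 percentage points. The 11 are not independent. All use the same lists, and taking day 0 peaks as units or merging day 0 and iPSC alone gave identical MEF-only shares.

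Compared with MEF-only regions away from gene ends (29981), those at gene ends kept peaks later. The distal regions had a peak in 63.6%, 28.4% and 52.1% at days 2, 4 and 6, and in 13.2% (12.8 to 13.6), 11.8% and 3.06% at days 8, 10 and 12. In any of days 8, 10 and 12, 40.1% (37.9 to 42.4) of the MEF-only gene-end regions had a peak, against 18.4% (17.9 to 18.8) of the distal ones and 97.2% of shared gene-end regions. The order was the same among regions of like day 0 strength. In the lowest of 4 bands of day 0 summit pileup, cut at its quartiles (8 to under 15) the shares were 23.8% at gene ends, 12.1% distally and 84.0% for shared regions, and in the highest (31 to 207) they were 49.1%, 29.1% and 99.3%. The 3′ ends alone lay near the distal regions in these bands, with 12.9% (8.63 to 18.4) and 29.9% (22.9 to 37.8). From 15 to under 21 they had 26.3% (19.6 to 33.9), against 16.4% (15.5 to 17.3) distally. From 21 to under 31 they had 23.5% (16.5 to 31.6), against 18.3% (17.4 to 19.3), where the intervals overlapped. The iPSC-only gene-end regions (2832) had shares of 41.5%, 18.4%, 20.2%, 33.3%, 37.3% and 18.4% in the same order of days. Between days 6 and 8 they went up while the MEF-only share went down, and both were lower at day 4 than at day 2 and at day 12 than at day 10.

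The most frequent history was a peak at day 0 alone (416 regions, 21.9%), followed by days 2 and 6 (220), days 2, 4 and 6 (218), day 2 only (196), days 2 to 10 (156) and all of days 2 to 12 (143, 7.52%). A peak was last seen at day 6 in 477 regions and at day 10 in 399. Of 1032 regions with peaks at days 2 and 6, 405 had none at day 4, and 44 regions had a peak in days 8 to 12 but in none of days 2 to 6. Regions with a late last peak were wider: the median width was 416 bp for those covered at day 0 alone, 974 bp for a last peak at day 6 and 1064 bp at day 12. Since merged regions grow with each list that covers them, width and number of lists are not independent.

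The regions differed by their position at the gene. Where the table gives the strand, 766 regions lay at a 5′ end, 646 at a 3′ end and 88 at both, and strand was missing for 401. The 5′ share of those at only 1 kind of end was 54.2% (51.6 to 56.9), against 95.5% of shared and 62.8% (60.7 to 64.9) of iPSC-only gene-end regions, and 48.5% of those found in intermediates only. A RefSeq start site lay inside 503 regions (26.5%), while this held for 73.6% of shared regions. The gene end itself lay inside 879 of the 1901 regions (46.2%), against 88.7% of shared regions. For 1794 the highest-scored day 0 peak itself lay within 1 kb of a gene end. The rest came within 1 kb through other peaks merged into the region.

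The 5′ regions stayed covered later than the 3′ regions. At 5′ ends the share with a peak was 81.1%, 47.5%, 63.6%, 45.3%, 47.3% and 21.4% at days 2, 4, 6, 8, 10 and 12. At 3′ ends it was 61.1%, 25.4%, 46.7%, 15.8%, 15.2% and 3.87%. In any of days 8 to 12 the shares were 54.3% (50.7 to 57.9) and 22.4% (19.3 to 25.9), and regions with a start site inside reached 70.2% (66.0 to 74.1). The shared 3′ regions (337) had a late peak in 84.9% and the shared 5′ regions in 97.9%, so the 3′ ends were lower in that class too. The 5′ share exceeded the 3′ share under all 11 alternatives that gave both, by 18.8 to 59.7 percentage points, though these alternatives are not independent.

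The difference was also found among regions of like day 0 strength. Among MEF-only gene-end regions in the lowest band of pileup, a late peak was found in 35.3% (28.1 to 43.0) of 170 at 5′ ends and in 12.9% (8.63 to 18.4) of 201 at 3′ ends. In the highest band the shares were 65.3% (58.1 to 72.0) of 193 and 29.9% (22.9 to 37.8) of 157. The intervals of the 5′ and 3′ regions did not overlap in any of the 4 bands. At day 6 the 5′ share was also above the 3′ share in each band, with 35.9% (28.7 to 43.6) against 19.9% (14.6 to 26.1) in the lowest, 55.3% (48.3 to 62.3) against 42.3% (34.4 to 50.5) in the second, 76.1% (69.6 to 81.9) against 56.8% (47.9 to 65.4) in the third and 83.9% (78.0 to 88.8) against 77.1% (69.7 to 83.4) in the highest. The day 6 intervals overlapped in the second and the highest band.

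**Figure D2:**
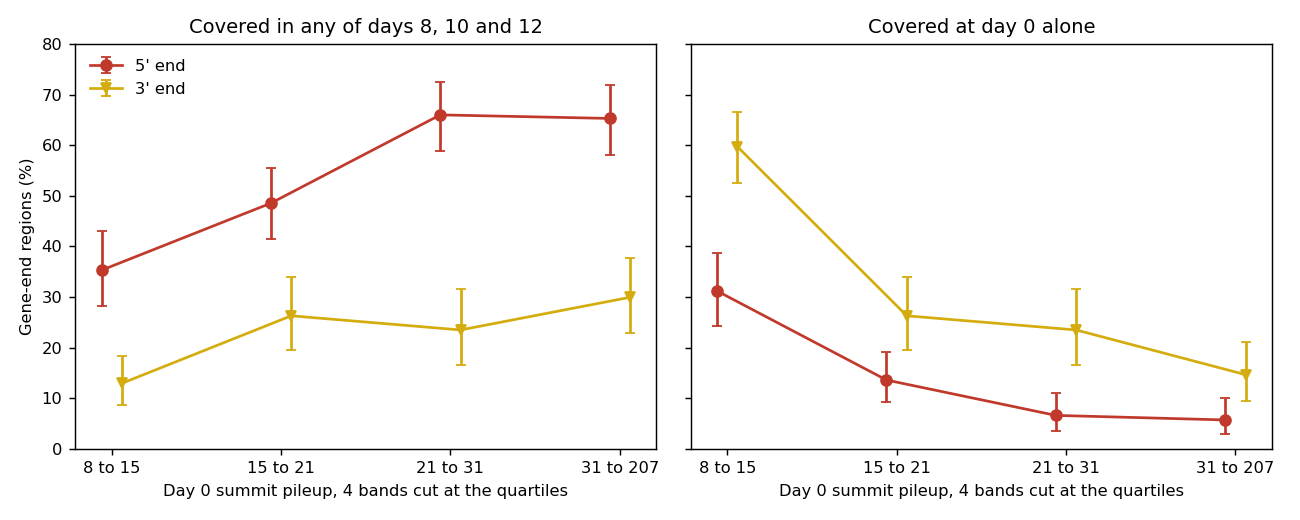
Share of MEF-only gene-end regions (%) with a peak in any of days 8, 10 and 12 (left) and at day 0 alone (right), for 5′ and 3′ ends in 4 bands of the day 0 summit pileup; bars are exact 95% intervals for counting error. The 5′ ends lie above the 3′ ends at left in each band (35.3% against 12.9% in the lowest) and below them at right.

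The regions covered at day 0 alone were mostly at 3′ ends. Their 5′ share was 32.8% (27.7 to 38.3). For a last peak at days 2, 4, 6, 8, 10 and 12 it was 48.1%, 74.3% (56.7 to 87.5; 26 of 5′ and 9 of 3′ ends), 42.4%, 51.3%, 72.3% and 86.8%, so the order was not steady. They were also weaker, with a median day 0 score of 45 against 78 for the others. The day 0 summit lay inside the gene for 54.9% (48.0 to 61.7) of the 215 3′ regions covered at day 0 alone and for 35.9% (28.1 to 44.2) of the 145 with a peak in days 8 to 12. Of 416 5′ regions with a late peak, 71.4% had their day 0 summit within 500 bp of the gene's end, against 42.9% of the 105 covered at day 0 alone.

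**Figure D3:**
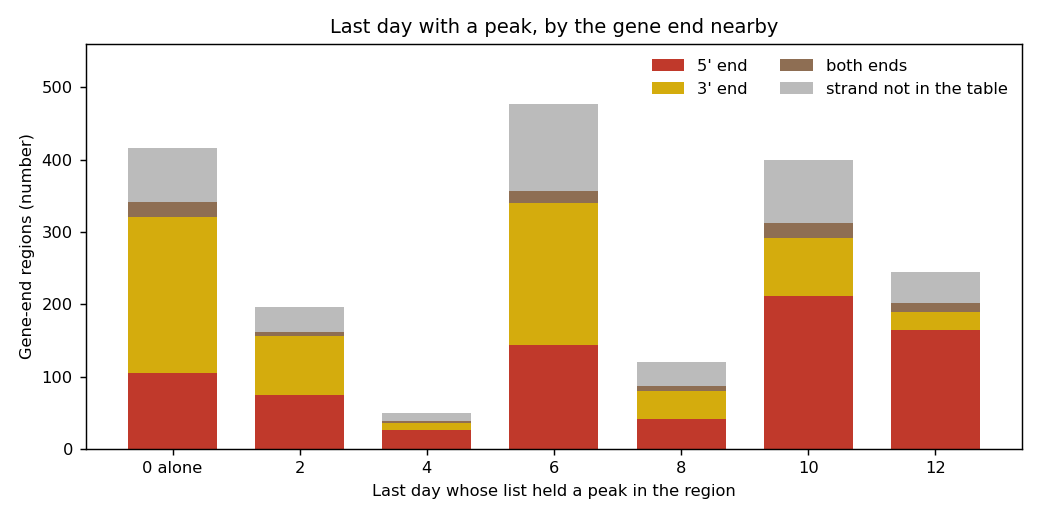
Number of MEF-only gene-end regions by the last day whose list held a peak, divided by the gene end within 1 kb. The 416 regions covered at day 0 alone include 215 at 3′ and 105 at 5′ ends, and the 244 with a peak at day 12 include 25 at 3′ and 164 at 5′ ends.

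Of 683 genes with a MEF-only region at the 3′ end and none at the 5′ end, 505 (73.9%, 70.5 to 77.2) had an iPSC peak within 1 kb of their 5′ end. Of 880 genes with a MEF-only region at the 5′ end, 161 (18.3%, 15.8 to 21.0) had another region there with an iPSC peak, and 620 had no iPSC peak at either end. Of all genes with strand, 56.5% had an iPSC peak at the 5′ end, and of all genes 59.6% had one at either end. The rule itself asks for the absence of an iPSC peak and so bears on these counts, which are a description only. In all, 2021 of 21883 genes (9.24%) had a MEF-only gene-end region: 1928 had 1, 92 had 2 and Bgn had 3. An iPSC peak lay within 500 bp of 142 of the 1901 regions, and the median gap was 6453 bp.

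The day 0 peaks of these regions were moderate. In the authors' peak list, the median fold at the summit, which is the pileup over the local background with 1 added to each, was 4.46, against 6.22 for shared gene-end regions and 5.21 for distal MEF-only regions. The median score was 69, against 175 and 79. The authors' scores ran from 13 to 4141, and 658 regions (34.6%) were in the better-scored 50% of the day 0 list. Fold values are given per list below and, with lists of unlike depth, are not a measure of change between days.

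Of genes of collagens and matrix, 16 of 32 had a MEF-only end, against 9.24% of all genes, and of the fibroblast markers 4 of 8 (Postn, S100a4, Thy1 and Vim). Of the macrophage markers 3 of 8 had one, and the intervals of both lists were wide (15.7 to 84.3% and 8.52 to 75.5%). Among the fibroblast markers, Thy1 and Vim also had an iPSC peak at an end. Endothelial, neural, keratinocyte and pluripotent markers had 1 of 8 each, and muscle markers 0 of 8. For the timing of each list below, the shares over all 1901 regions given above are the background, and most lists hold too few regions to set apart from it. Of the 18 regions of the matrix genes, the lists of days 2, 4, 6, 8, 10 and 12 covered 11, 7, 8, 2, 3 and 0. Col6a2, a chain of collagen VI, had a 5′ region (chr10:76622983-76623684) with folds of 6.09, 9.11, 5.85 and 5.63 at days 0, 2, 4 and 6 and no later peak. Its neighbour Col6a1 and Col3a1, a fibrillar collagen gene, also had their last peak at day 6. Postn, which encodes the matrix protein periostin, kept its 5′ region (chr3:54357703-54359115) until day 10, with folds of 4.62, 9.66, 5.23, 5.31, 7.94 and 4.77. Loxl1, a collagen and elastin crosslinking enzyme, had folds of 3.72 and 3.56 at days 0 and 2 only. All 3 regions of Bgn, which encodes the proteoglycan biglycan, were covered at day 0 alone, with folds of 3.59, 2.37 and 4.44. Of the 16 genes, 10 had no iPSC peak at either end, against 1029 of all 2021 genes with a MEF-only end (50.9%). The count of matrix genes with a MEF-only end fell from 16 to 6 with the better-scored 50% of each list. It fell to 5 with the better-scored 50% of day 0 peaks.

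Genes of the contractile apparatus had 7 of 22 members with such a region (31.8%, 13.9 to 54.9), against 9.24% of all genes. Of the 7, 4 had no iPSC peak at either end, among them Acta2 and Ankrd1 but not Vcl. Acta2, smooth muscle actin, had a 5′ region (chr19:34254311-34255983) with folds of 6.87, 5.44, 4.17 and 4.47 at days 0, 2, 4 and 6 and a 3′ region at day 0 alone. Ankrd1, a stretch-responsive YAP target, had peaks at its 5′ end at days 0, 2, 6 and 10, with folds of 7.62, 5.77, 5.88 and 5.06. Vcl, which encodes the focal adhesion protein vinculin, had a 3′ region with folds of 8.35, 7.73, 6.66, 6.55 and 5.24 at days 0, 2, 6, 8 and 10. Of the 10 regions of these genes, 5 had a peak at day 6 and 0 at day 12, near the shares over all 1901 regions (57.0% and 12.8%).

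Mesenchymal transcription factors were represented near the background, with 3 of 31 genes (9.68%). Runx2, the regulator of bone and cartilage cells, had a 5′ region (chr17:44814343-44815916) with folds of 7.78, 7.95 and 6.48 at days 0, 2 and 6. Prrx1, a limb mesenchyme homeobox gene, had folds of 4.35, 6.17, 4.15 and 3.73 at days 0 to 6, and an iPSC peak lay 362 bp away. Snai1, a repressor of epithelial genes, had a 3′ region at days 0, 2 and 6. All 3 were without a peak at days 8, 10 and 12, and of the 3 only Runx2 had no iPSC peak at either end. Of 39 HOX genes 6 had a MEF-only end (15.4%, 5.86 to 30.5, against 9.24% of all genes), 4 of them without an iPSC peak at either end. The timing varied among the 6. Hoxc5 had a peak in each list from day 0 to day 12, though an iPSC peak lay 25 bp from the merged region. Hoxa11 had peaks at days 0, 2, 8 and 10, and Hoxd11 at days 0, 2 and 6.

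Signalling genes showed both patterns. Of 22 TGF-beta and BMP genes 5 had a MEF-only end (22.7%, 7.82 to 45.4, against 9.24% of all genes). All 5 also had an iPSC peak at an end. Tgfbr2, the type II TGF-beta receptor, had a 3′ region with folds of 4.28, 4.99, 4.58 and 5.19 at days 0, 2, 4 and 6. Regions of Tgfb3, a TGF-beta ligand, and of Eng, a co-receptor, were covered at day 0 alone. Among 12 TEAD and YAP genes, 4 had a MEF-only end (33.3%, 9.92 to 65.1). Of these only Ajuba had no iPSC peak at either end. Axl, a receptor tyrosine kinase, had a 5′ region with folds of 3.43, 5.39 and 5.92 at days 0, 2 and 4, and Nt5e, the surface enzyme CD73, a 3′ region with 8.42 and 5.82 at days 0 and 2. Ajuba, a LIM protein of the Hippo pathway, had a peak in every list up to day 12. Of the 12 AP-1 genes, Fos and Fosb (16.7%, 2.09 to 48.4) had a region downstream of their 3′ end, with the Fosb region covered from day 0 to day 12. Both genes also had an iPSC peak at an end.

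Cytokine genes had 6 of 25 members with a MEF-only end (24%, 9.36 to 45.1, against 9.24% of all genes). All 6 had a peak at day 6, and 5 of them had no iPSC peak at either end. Il6 had a 5′ region (chr5:30012608-30013526) with folds of 10.9, 9.33, 7.0, 7.65, 5.75 and 7.45 at days 0, 2, 4, 6, 8 and 10. Cxcl10, an interferon-induced chemokine, was covered at all days but day 4, with 7.70 at day 0 and 7.21 at day 12. Ccl2, a monocyte attractant, had folds of 3.82 at day 0 and 2.89 at day 6 and no other peak, and Ccl7 the same days. Irf7, a factor of the interferon response, had peaks from day 0 to day 10. Of 24 surface and receptor genes 8 had a MEF-only end (33.3%, 15.6 to 55.3), and of these only Itga11 had no iPSC peak at either end. Among the 8 was Thy1, a fibroblast surface marker, with folds of 4.83, 4.03 and 3.36 at days 0, 2 and 6. The regions of the 3 retinoid genes of 13 (23.1%, 5.04 to 53.8), Crabp1, Crabp2 and Rara, had day 0 peaks alone, with folds of 5.07, 2.81 and 3.21. Of the 3 genes only Rara had no iPSC peak at either end.

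Other genes, from the pluripotency and housekeeping lists or picked by day 0 score, also had a MEF-only end. Klf4, a reprogramming factor that fibroblasts also use, had a 5′ region with folds of 2.53, 5.30, 3.62, 5.99, 4.44 and 6.59 at days 0, 2, 6, 8, 10 and 12. Neither end of the gene had an iPSC peak within 1 kb, but one lay 1471 bp from the region. Tdgf1 was the other of 24 pluripotency genes (8.33%, against 9.24% of all genes), with an iPSC peak 720 bp from its region. Housekeeping genes had 3 of 14 (21.4%, 4.66 to 50.8), among them Actb and Rplp0, both on genes with an iPSC peak in another region at an end. That interval overlapped those of the contractile, HOX, signalling, cytokine, surface and retinoid genes. The annexin gene Anxa5 had a 3′ region among the 10 best-scored, with folds of 9.17, 9.67, 8.01, 9.20, 5.48 and 5.08 from day 0 to day 10. The gene also had an iPSC peak at an end. Of the 10, 3 more lay at 3′ ends and were last covered at day 6. Ppp2r1b, which encodes a scaffold subunit of protein phosphatase 2A, had folds of 9.69, 11.7, 8.66 and 9.05 at days 0, 2, 4 and 6. Cntf, a neurotrophic cytokine, had 10.3, 7.80, 7.05 and 6.21 in the same lists, and Adgrg1, an adhesion G protein-coupled receptor, had 9.83, 9.49 and 4.49 at days 0, 2 and 6. Pdgfb, a growth factor for mesenchymal cells, had 8.23 and 6.69 at days 0 and 2 only.

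Regions with peaks in each of days 2 to 12 were led by day 0 score by Ubald2, Lgals1, Mybl2, Chmp4b and Rrs1. Ubald2, the promoter with 4 NF-Y boxes shown above, had folds of 8.44, 8.98, 8.99, 8.93, 5.12, 3.21 and 5.46 from day 0 to day 12. Lgals1, which encodes galectin-1, had 5.80, 4.97, 4.60, 3.63, 7.78, 6.13 and 6.46. Mybl2, a cell cycle transcription factor, had an iPSC peak 998 bp from its region, while for Chmp4b, a subunit of the ESCRT machinery, the nearest lay 9632 bp away. Just inside the 1 kb limit were regions 996 bp from Col4a2 (fold 3.49) and 999 bp from Zfp62 (fold 4.90), and just outside were regions 1002 bp from Ccdc3 (fold 8.45) and 1002 bp from Pou1f1 (fold 4.396).

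**Figure D4:**
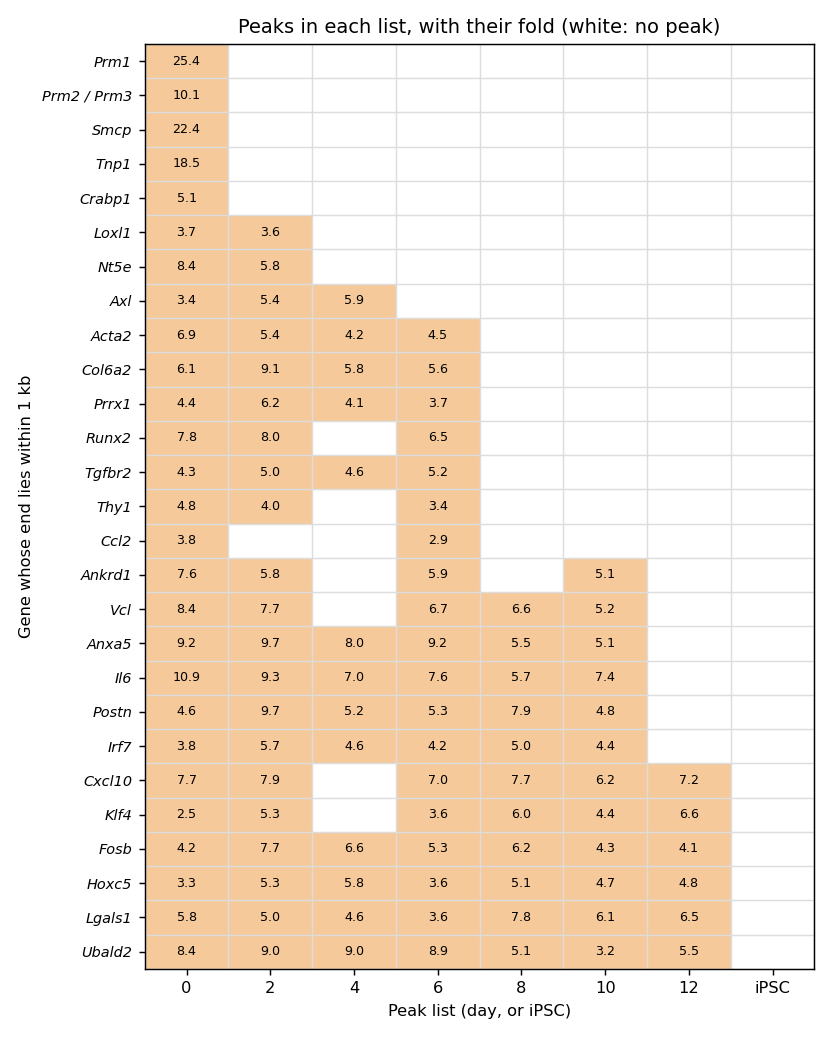
Presence of a peak in the list of each stage (filled cell) for the regions of 27 named genes, with the authors' fold at the summit; folds can be compared within a column only. The cells run from day 0 alone (Prm1, 25.4) through a last peak at day 6 (Acta2, Col6a2, Prrx1, Runx2) to peaks up to day 12 (Lgals1, Ubald2), and the iPSC column is empty by the rule.

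The strongest day 0 peaks did not lie at fibroblast genes. By day 0 score the highest 4 were at Prm1 (score 4141, fold 25.4), at Prm2 and Prm3 (1275, 10.1), at Smcp (1224, 22.4) and at Hmgb4 (1159, 21.1), and Fabp9 (1136, 21.6) and Tnp1 (702, 18.5) followed. Prm1 and Prm2 encode protamines and Tnp1 a transition protein, which pack DNA in spermatids, and Smcp encodes a sperm mitochondrial protein. Of 18 spermatid genes, 14 (77.8%) had a MEF-only end. None of the 14 regions had a peak at days 4 to 12, and 13 were covered at day 0 alone. The exception was a region of Ldhc, the testis lactate dehydrogenase, with a fold of 10.9 at day 0 and 2.93 at day 2. Fabp9 was not on the list and had a further peak at day 10, with a fold of 9.15. The list was written with the high peaks at Prm1, Prm2 and Smcp already known, so it is no independent evidence.

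These regions lay over gene bodies rather than upstream of them. The Tnp1 region (chr1:73015074-73015958) took in the whole gene (chr1:73015074-73015899), and that of Prm1 its gene (chr16:10796332-10796823) with 84.2% of the region inside it. Oaz3, Crisp2, Akap4, Pgk2, Spata18 and Prm2 had their region wholly inside the gene, and the day 0 summit lay inside the gene for each spermatid gene with a region but Prm3, which shares its region with Prm2. Other genes known from testis were found among the best-scored regions covered at day 0 alone, chosen after their values were seen: Cetn1 (fold 13.4), Meikin (10.1), Meig1 (10.6), Spink2 (11.2) and Spz1 (9.85). Of 22 regions with a fold of 10 or more 11 were covered at day 0 alone. The source of these peaks in the day 0 list was not tested. Left out, the 14 regions changed no share over the 1901 beyond its counting interval.

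Promoter composition moved with how long a region stayed covered. The promoter window (250 bases before and 50 after a start site) of 631 start sites overlapped a MEF-only gene-end region. A CpG ratio of 0.6 or more was found in 56.4% (52.4 to 60.3) of them, between the 79.1% of 10358 windows on shared regions and the 7.58% of 7840 windows with no peak in any list, and it was 45.5% on iPSC-only regions. Among the MEF-only windows it was 23.1% (11.1 to 39.3) of 39 with day 0 peaks alone, 32.1% (24.8 to 40.0) of 156 with a last peak at days 2 to 6 and 68.1% (63.5 to 72.5) of 436 with a peak in days 8 to 12. Seen by region, with a start site inside, those of CpG ratio under 0.6 (217) had a peak in 70.0% at day 6 and 37.8% (31.3 to 44.6) at day 8, while those of 0.6 or more (286) had one in 79.4% and 76.6% (71.2 to 81.4). The median day 0 pileup was 19 in the former and 25 in the latter, and the part of this gap was not tested.

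The AP-1 motif was more frequent in MEF-only promoters than on shared or iPSC-only regions or in windows without a peak. Windows on regions found in intermediates only were not counted apart. It was found in 8.56% (6.49 to 11.02) of MEF-only windows, 3.04% (2.72 to 3.39) of shared, 3.81% of iPSC-only, 5.93% of windows without a peak and 4.66% of all 21262 promoter windows. In windows of CpG ratio under 0.6 the shares were 14.9% (10.9 to 19.7; 41 of 275), 5.64% (4.70 to 6.69) on shared regions, 6.16% without a peak and 6.65% of all, and in windows of 0.6 or more they were 3.65% (1.96 to 6.16) and 2.36% on shared regions, where the intervals overlapped. By timing, the low-CpG MEF-only windows held it in 6 of 30 at day 0 alone, 14.2% of 106 with a last peak at days 2 to 6 and 14.4% of 139 with a late peak. Over all MEF-only windows the TEAD motif was in 16.0% (13.2 to 19.1), against 11.2% of shared windows and 16.6% of windows without a peak. It was in 21.8% (17.1 to 27.2) of the 275 low-CpG windows and in 15.8% (14.2 to 17.4) on shared regions, with narrowly overlapping intervals. Low-CpG windows without a peak held it in 17.0% (16.1 to 17.9), where the intervals also overlapped. By timing, among the low-CpG MEF-only windows, it was in 10 of 30 (17.3 to 52.8%) at day 0 alone, in 28.3% (19.98 to 37.9) of 106 with a last peak at days 2 to 6 and in 14.4% (9.02 to 21.3) of 139 with a late peak.

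The other motifs lay above, below or near the other classes counted, by motif. GGGCGG was in 51.2% of MEF-only, 69.8% of shared and 13.49% of windows without a peak, and TATAAA in 9.98%, 5.72% and 22.7%. CCAAT was in 30.9% (27.3 to 34.7) of MEF-only windows, against 39.5% of shared and 38.2% of all, but 31.4% of iPSC-only windows. TGTGGT was in 14.1%, against 15.0% of all promoters, and CAGCTG in 19.3% against 15.6%. In iPSC-only windows CAGCTG was also in 19.3%, so neither the CCAAT nor the CAGCTG share was particular to MEF-only windows. The CRE was in 19 of 631 windows (3.01%, against 2.23% of all), and all 19 were among the 436 with a late peak, against 0 of 39 and 0 of 156, where up to 9.03% and 2.34% are compatible with the counts. Of the 19, 17 had a CpG ratio of 0.6 or more, and within that class the shares were 5.72% (3.37 to 9.01) of 297 with a late peak and 0 of 50 (up to 7.11%) with a last peak at days 2 to 6, where the intervals overlapped. The CArG box was in 1.43% of MEF-only and 1.52% of all windows. A match is a stretch of letters and shows no bound factor.

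**Figure D5:**
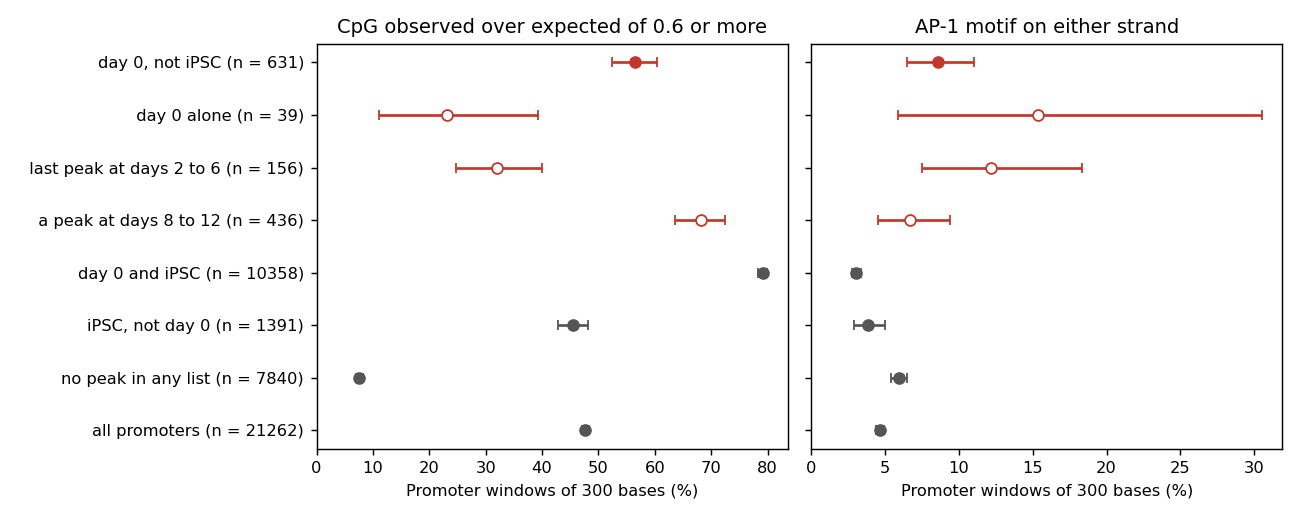
Share of promoter windows of 300 bases (%) with an observed over expected CpG ratio of 0.6 or more (left) and with the AP-1 motif (right), with exact 95% intervals; open points divide the MEF-only windows by their last peak. The CpG share rises from 23.1% at day 0 alone to 68.1% with a peak in days 8 to 12, and the AP-1 share of MEF-only windows (8.56%) lies above that of shared windows (3.04%).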

How the data were processed

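ATAC-seq was done on 16 mouse samples, 2 per stage. The build was mm10, and the tools, per the submitters' processing notes, were MACS2 2.1.2, Bowtie2 2.2.5, fastp 0.20.1, deepTools 3.4.3 and SAMtools. Their order, their settings, any shift for the Tn5 offset and the way the pair of samples gave 1 list are not given in the sources used here. Each deposited list holds, per peak, a score, a fold at the summit (a ratio), and a −log10 p-value, as the authors' caller wrote them; these served only to rank, describe or filter peaks within a list. Depth was not stated. The summit pileup was recovered from the deposited fold and −log10 p, taken as a Poisson tail, to within 0.001 in 99.9495% or more of each list's peaks.

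Peaks on chromosomes 1 to 19, X and Y were merged with Python 3.11.15 (pandas 2.3.3, numpy 2.4.6, SciPy 1.17.1). Gene ends came from 21883 RefSeq genes, with strand from the promoter table for 17491. The scripts were tested on simulated data. The members and the 24 gene lists were chosen with earlier results of these data known. The rule for naming took the 10 best-scored members, up to 4 per list, 3 per last day, the 5 best-scored with peaks in all of days 2 to 12, the 5 genes with most members, and those at the 1 kb limit. Not all genes it took are described; among those left out are some of each list and last day, and the genes tied at 2 members. Genes named beyond this rule (Col6a1, Col3a1, Eng, Ccl7 and the testis genes) were chosen after their values were seen. Alternatives changed the peaks kept, the overlap, the window, the unit and the depth.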

Additional observations from a re-analysis of the deposited data

How the results depend on the processing

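Every share is a count over single lists, and at low depth an absent peak is not closed chromatin. No paired analysis was possible because the authors gave 1 list per stage and no result comes from a test. Of 162 alternative values, 93 stayed within the counting interval or within 1.5 times for counts. Spermatid genes with a region were 11 to 14. Alternatives with other lists merged, without an iPSC peak within 500 bp, or without the spermatid genes were chosen in part after seeing the data, as were those on late shares and on counts at day 0 alone. The cause was not tested, except that a shorter iPSC list by construction turns shared regions into MEF-only ones.

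With the better-scored 50% of each list, shares at days 2, 4, 6, 8, 10 and 12 were 80.1%, 51.3%, 68.1%, 53.4%, 53.1% and 26.2%, late shares 60.1% (5′ 76.3%, 3′ 16.5%), the 5′ share 75.1%, regions at day 0 alone 171 and matrix genes 6. With lists of equal length they were 53.6%, 53.4%, 58.4%, 51.1%, 49.7% and 28.3%, late 57.7% (5′ 74.7%), and the 5′ share 67.7%. With the better-scored 50% of day 0 peaks, 650 regions had 85.4%, 53.1%, 79.2%, 41.7%, 40.2% and 19.7%, late 48.6% (5′ 69.2%, 3′ 28.2%), 67 at day 0 alone and 5 matrix genes. Where peaks had to cover 50% of a region, 3004 regions had 79.6%, 29.7%, 49.7%, 19.8%, 27.7% and 2.33%, late 33.8% (5′ 42.8%, 3′ 10.4%), and a 5′ share of 72.9%. A 2.5 kb window gave 3250 regions with 67.1%, 31.3%, 53.05%, 25.1%, 25.4% and 9.26%, late 32.5% (5′ 41.1%), a 5′ share of 49.3% and 847 at day 0 alone. A 500 bp window gave 75.8%, 41.4%, 61.1%, 38.0%, 38.1% and 15.8%, late 46.4% (5′ 61.6%), a 5′ share of 59.2% and 270 at day 0 alone. Lists scaled to the day 8 background gave 55.8%, 34.2% and 40.7% on days 2, 4 and 6. With day 0 peaks as units, or regions merged from day 0 and iPSC alone, the 5′ share was 59.8%, and the MEF-only values of these alternatives were identical throughout. Day 6 lay above day 4 and day 10 above day 12 under all 11 alternatives that gave both, and day 2 above day 6 under 10 of 11, the exception being equal lengths.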
